A study of Mus musculus with 3 samples.

Results

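The genes described here are 40 antioxidant genes of the mouse: the transcription factor NRF2 and its inhibitor KEAP1, enzymes that make, use or recycle glutathione, the enzymes that remove peroxide and superoxide, and the metallothioneins. They were taken from a list of gene symbols, and each was read from the array's probe set annotated to that symbol alone. Of the 40, 36 had such a probe set, 1 each, out of 30142 genes named in this way. Gsta1, Gclm and Prdx1 were read only by probe sets that a second gene shares, and Prdx6 was not analysed here. The background floor, 43.7 intensity units, was set at the 95th percentile of 492 genes for vomeronasal receptors, which sense pheromones and are not known from these ganglia. At or above it lay 35 of the 36 genes and 17653 of the 30142, while Gsta3 was just below it at 43.3 units in all 3 arrays.

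RNA came from primary dorsal root ganglion neurons of male ICR mice, an outbred strain, aged 8 to 10 weeks, kept for 72 hours in 1 of 3 media. The first medium held 1 µg/ml recombinant SEMA3E, a secreted guidance protein of the semaphorin family, together with a blocking IgG, also at 1 µg/ml, the second held 1 µg/ml SEMA3E alone, and the third, control medium, held neither. All 3 were DMEM with the B27 supplement, which is sold with and without antioxidants, and the labels do not say which was used. Each medium has 1 array, so no difference below has an error or a test, and precision is limited by that number. Cells given an IgG without SEMA3E were not analysed here, and the labels do not say how many mice gave the cells of an array.

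The arrays were close to each other, with Pearson's r of at least 0.9996 across the 17653 genes, which are not independent replicates. All 11 neuronal markers checked lay above the floor, as did all 5 satellite glial, 6 Schwann cell, 6 fibroblast and 6 endothelial markers that were measured and 6 of 9 macrophage markers. So did 17653 of all 30142 genes. Some non-neuronal markers were far above it, such as Pmp22 (130696 units in each array) and Dcn (8988), so the RNA was not of neurons alone. Others were dimmer, such as Mbp (235.1) and Col1a1 (253.0). Endothelial markers lay nearer the floor, from Kdr at 49.6 to Emcn at 140.7 units, and do not show that endothelial cells were present. Cldn5 read 63.4 units in both SEMA3E media and 71.1 in control. In such mixed RNA, fewer cells of a type and less RNA per cell cannot be told apart. Summed intensities of the neuronal markers were 418819, 421017 and 426982 units in SEMA3E with IgG, SEMA3E and control. Those of the satellite glial markers were 8345, 8771 and 8934 units, and those of the macrophage markers 4174, 4256 and 4003 units. With SEMA3E, 3 of the 5 satellite glial markers (Fbln5, Atp1b2 and Kcnj10), 1 of the 11 neuronal (Tubb3), 1 of the 6 fibroblast (Ogn) and 1 of the 6 endothelial markers (Cldn5) were at least 1.1-fold lower than control, 1 of the 6 macrophage markers (Lyz2) was higher, and the Schwann cell markers held 0 of either. Ogn was furthest from control of these, with log2 differences of −0.83 in SEMA3E with IgG and −0.57 in SEMA3E. The part of these cell types in the differences below was not tested.

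NRF2, encoded by Nfe2l2, is held by KEAP1 and marked for destruction. Oxidants and electrophiles modify KEAP1, and NRF2 then enters the nucleus, pairs with small MAF proteins and binds the antioxidant response element of genes for glutathione synthesis, glutathione transferases and quinone reduction. Metallothioneins are small proteins that bind zinc and copper, and their genes respond to metals through MTF1, a factor that binds metal response elements. Sensory neurons have long axons rich in mitochondria, and oxidative damage to them is studied as a part of neuropathy.

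Few of these genes differed by 1.1-fold or more between the media. Against control, 2 of 35 genes were at least 1.1-fold higher with SEMA3E, namely Gsta4 and Nqo1, and 2 were at least 1.1-fold lower, namely Gstm4 and Mt3. The same fold was passed upwards by 1.38% and downwards by 2.36% of all 17653 genes. With SEMA3E and IgG, Gsta4 and Nqo1 were again at least 1.1-fold higher than control, where the background was 2.11%. Gstm4, Gstt1, Gpx1 and Mt3, 4 of 35, were lower, against a background of 2.45%. Between SEMA3E with IgG and SEMA3E alone, 0 of 35 genes were at least 1.1-fold higher (background 2.67%) and 2, Gstt1 and Gpx1, were lower (background 2.08%). Each gene is 2.86% of the 35, so counts of this size are read as named genes and not as a direction of the group. The median difference was 0 in each of the 3 comparisons, both for the 35 genes and for all 17653. These comparisons share arrays with each other, and the values of each are given side by side.

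A stricter rule, a ratio of at least 5 to 4, left Gsta4 as the 1 gene higher than control, both with SEMA3E (background 0.334%) and with SEMA3E and IgG (background 0.34%). By this rule 0 genes were lower than control with SEMA3E (background 0.397%) or with SEMA3E and IgG (background 0.544%), and 0 differed between SEMA3E with IgG and SEMA3E alone (backgrounds 0.476% higher and 0.306% lower). A looser rule counted any difference over 0.01 on the log2 scale. By it 3 of 35 genes (8.57%) were higher than control with SEMA3E (background 5.59%) and 6 (17.1%) were lower (background 11.0%). The further ones were Gsta2, higher, and Gstm5, Gstt1, Gstt2 and Mt2, lower. With SEMA3E and IgG, 5 (14.3%) were higher than control (background 6.8%) and 8 (22.9%) were lower (background 10.3%). Between SEMA3E with IgG and SEMA3E alone, 2 (5.71%) were higher, Txnrd1 and Sqstm1 (background 9.19%), and 4 (11.4%) were lower, Gsta4, Gstt1, Gpx1 and Mt1 (background 9.42%).

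**Figure D1:**
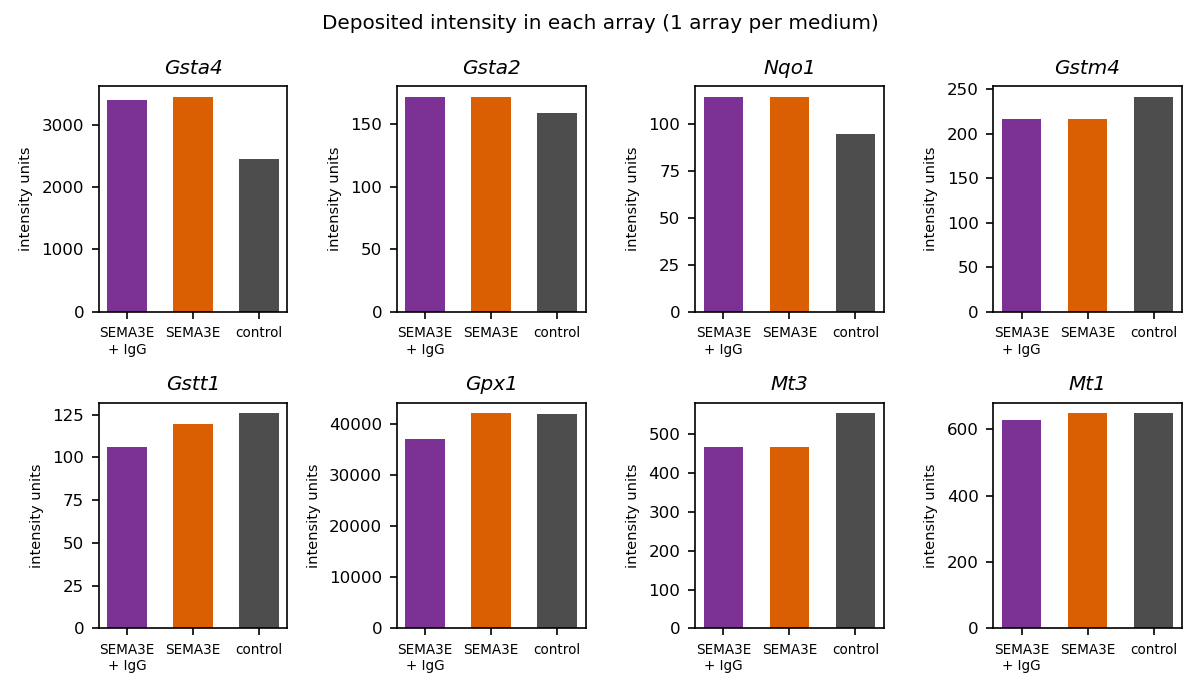
Deposited intensity of 8 genes in each array, in intensity units from 0, with 1 bar per array (SEMA3E with IgG, SEMA3E, control). Gsta4, Gsta2 and Nqo1 are higher in both SEMA3E media than in control, Gstm4 and Mt3 are lower in both, and Gpx1 is lower in the IgG array alone.

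The highest difference from control among the 35 genes was that of 1 gene of the alpha class of glutathione transferases, Gsta4. Gsta4, whose enzyme conjugates glutathione to hydroxynonenal and other products of lipid peroxidation, read 3390 units in SEMA3E with IgG and 3447 in SEMA3E, against 2445 in control. Both SEMA3E arrays were thus above control, by log2 differences of 0.47 and 0.50 (1.39-fold and 1.41-fold), and they lay 0.02 apart. Only 22 of the 17653 genes were further above control with SEMA3E, and 18 with SEMA3E and IgG. Gsta2, a transferase that also reduces organic peroxides, read 171.9 units in each SEMA3E medium, against 158.6 in control, a log2 difference of 0.12 that stays under 1.1-fold. Gsta3 lay below the floor and was identical in all 3 arrays.

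Gsta1 itself has no value of its own. Its probe set is annotated also to Gm3776, the next protein-coding gene on chromosome 9, and is counted in none of the comparisons. That shared probe set read 229.9 units in each SEMA3E medium, against 159.6 in control, a log2 difference of 0.52 (1.44-fold). The 3 alpha-class probe sets of chromosome 9 read here were therefore higher than control in both SEMA3E media, Gsta2 by under 1.1-fold. Gsta5 had no single-symbol probe set and was not read. Signal from a paralogue can be read by the probes of another, and how far it was is not tested here. The likeness of the promoters is shown by the RefSeq windows (GRCm38.p6), each of 250 bases before and 50 after the start site, 5′ to 3′ on the gene's strand. Most of a window lies before the transcribed bases, so it does not show how far probes of one gene read another. Capitals mark bases of Gm3776 and Gsta2 that differ from the aligned base of Gsta1 or have no partner in it, within the stretch where the windows overlap.
Gsta1 (chr9:78230419-78230718, + strand): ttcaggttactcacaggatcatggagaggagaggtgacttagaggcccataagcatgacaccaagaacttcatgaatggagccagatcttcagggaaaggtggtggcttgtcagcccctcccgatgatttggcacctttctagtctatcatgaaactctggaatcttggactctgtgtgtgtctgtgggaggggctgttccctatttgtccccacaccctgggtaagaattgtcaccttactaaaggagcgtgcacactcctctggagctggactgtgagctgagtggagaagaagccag
Gm3776 (chr9:78256879-78257178, + strand): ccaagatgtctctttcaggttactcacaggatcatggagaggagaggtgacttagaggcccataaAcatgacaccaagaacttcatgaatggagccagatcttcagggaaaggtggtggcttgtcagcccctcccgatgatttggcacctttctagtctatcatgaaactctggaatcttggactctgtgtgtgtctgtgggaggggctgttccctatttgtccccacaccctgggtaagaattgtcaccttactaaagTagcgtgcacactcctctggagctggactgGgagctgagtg
Gsta2 (chr9:78347096-78347395, - strand): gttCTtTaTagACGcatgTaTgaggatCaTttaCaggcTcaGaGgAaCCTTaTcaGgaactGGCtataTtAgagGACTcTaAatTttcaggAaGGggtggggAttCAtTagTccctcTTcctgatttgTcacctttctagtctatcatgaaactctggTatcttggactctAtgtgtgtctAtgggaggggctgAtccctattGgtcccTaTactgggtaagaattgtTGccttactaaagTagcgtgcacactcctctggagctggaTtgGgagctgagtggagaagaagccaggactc
The windows of Gm3776 and Gsta1 overlapped over 287 positions and shared 284 of them (99.0%). Those of Gsta2 and Gsta1 shared 238 of 306 aligned positions (77.8%), 22 of which were gaps, and those of Gsta3 and Gsta1 shared 55.2%. Gsta4 has no window in the table used.

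Mu-class transferases, a cluster of neighbouring genes on chromosome 3, were identical or lower. Gstm4 read 216.4 units in each SEMA3E medium, against 241.8 in control, a log2 difference of −0.16. Gstm5 read 7885 units in each SEMA3E medium and 8117 in control, a difference of −0.04. Gstm1, Gstm2, Gstm3, Gstm6 and Gstm7 held the same value in all 3 arrays, at 1370, 553, 82.7, 70.7 and 235.1 units. A probe set's brightness also depends on its probes, so these levels do not rank the genes. No mu-class gene differed between SEMA3E with IgG and SEMA3E alone: all 7 values were identical, as were those of 14036 of all 17653 genes.

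Among the other cytosolic transferases, the theta-class gene Gstt1 read 106.0 units in SEMA3E with IgG, 119.4 in SEMA3E and 125.8 in control. The IgG array was the lowest, with log2 differences of −0.17 from SEMA3E and −0.24 from control, while SEMA3E lay −0.07 from control. Gstt2, of the same class, read 103.3 units in both SEMA3E media, against 108.6 in control (log2 difference −0.07). Gstp1, the pi-class transferase, was at 45676 units in both SEMA3E media and 45475 in control, a difference of 0.01. Gsto1 and the mitochondrial and peroxisomal Gstk1 were identical in all arrays, as were the membrane-bound Mgst1 and Mgst2. Mgst3 was at 715 units in both SEMA3E media, against 716 in control. The Gstp1 window shared 80.4% of aligned positions with that of its paralogue Gstp2, whose probe set is also annotated to a pseudogene and was not used.

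The regulators themselves did not differ in these values. Nfe2l2 was at 168.2 units and Keap1 at 177.9 units in all 3 arrays, and NRF2 is controlled largely through its protein, which arrays do not measure. Glutathione supply was likewise identical to the last deposited digit. All 3 values were identical in 74.9% of all 17653 genes too, so this is not read as a trait of the regulators or of glutathione supply. Slc7a11, the cystine importer, was at 153.4 units, Gclc, the catalytic subunit of the rate-limiting ligase, at 598.3, Gss, the synthetase, at 139.8, and Gsr, which reduces oxidised glutathione, at 1572. The probe set shared by Gclm, the ligase's modifier subunit, and the pseudogene Gm6061 was at 1306 units in each array. Equal amounts of RNA do not follow from identical values. How the deposited values came to be identical was not tested.

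**Figure D2:**
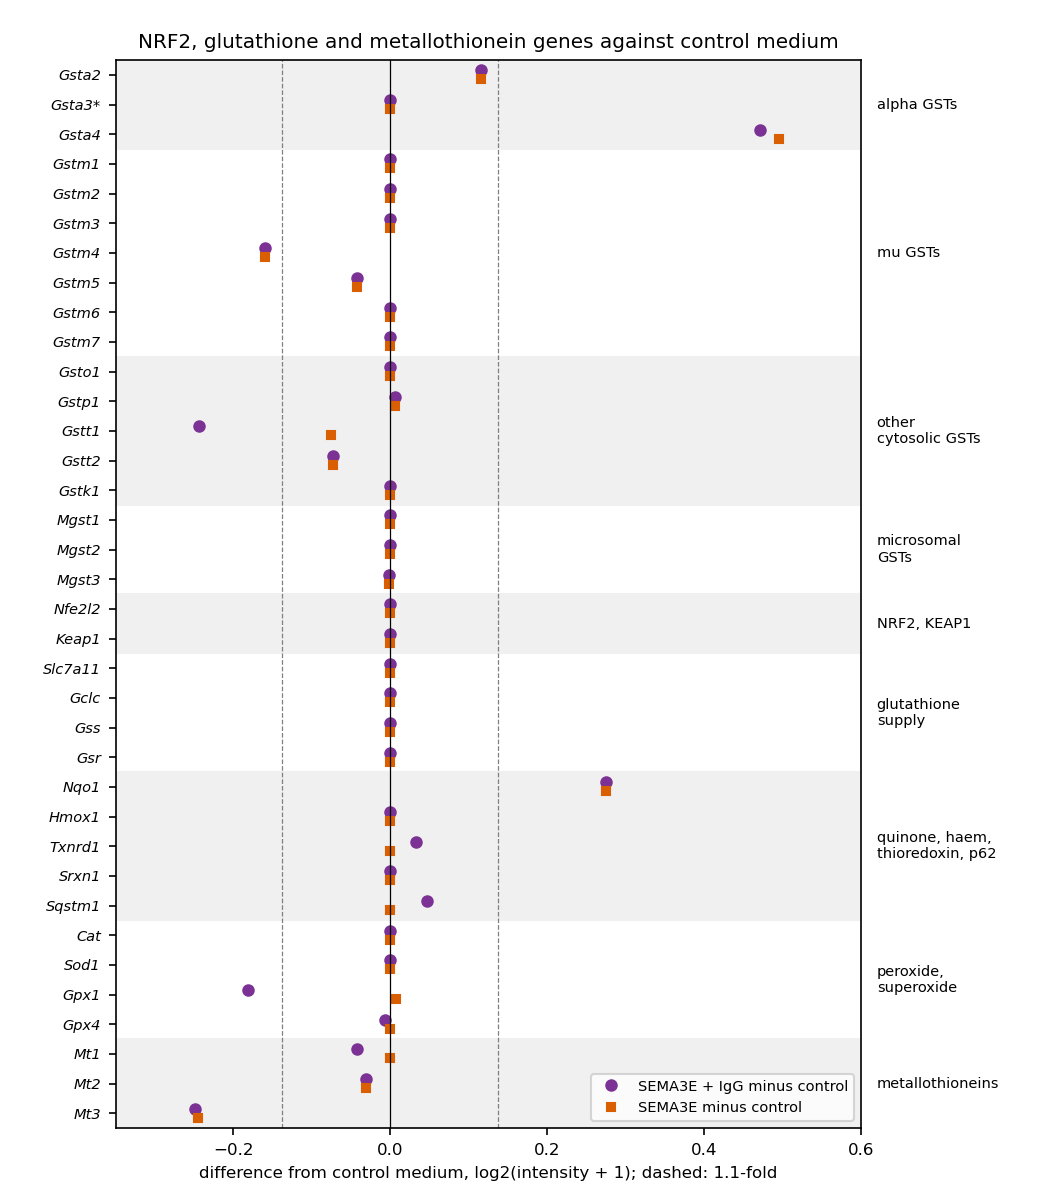
Log2 difference from control medium for each of the 36 measured genes, grouped by role, with circles for SEMA3E with IgG, squares for SEMA3E and dashed lines at 1.1-fold; the asterisk marks Gsta3, which is below the floor. Gsta4 and Nqo1 lie right of the dashed line in both comparisons, Mt3 and Gstm4 left of it in both, and Gstt1 and Gpx1 left of it for SEMA3E with IgG alone.

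Of the inducible enzymes most often used as readouts of NRF2, Nqo1 stood apart from Hmox1 and Srxn1. Nqo1, which reduces quinones, read 114.4 units in both SEMA3E media, against 94.3 in control, a log2 difference of 0.28 (1.21-fold), and 78 of the 17653 genes were further above control with SEMA3E. Hmox1, which breaks down haem, was at 183.1 units and Srxn1, which restores over-oxidised peroxiredoxins, at 5326 units in all 3 arrays. Txnrd1, which reduces thioredoxin, read 3239 units in SEMA3E with IgG and 3165 in both SEMA3E and control. Sqstm1, whose product p62 sequesters KEAP1, read 22538 units in SEMA3E with IgG, against 21821 in both other arrays. The IgG array was thus the highest for Txnrd1 and Sqstm1, by log2 differences of 0.03 and 0.05.

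The promoter windows of Nqo1 and Txnrd1 are shown because Nqo1 differed and Txnrd1 holds a match to the core of the antioxidant response element, TGACNNNGC, searched on both strands. Capitals mark that match, and the Txnrd1 window is 1 of 3 listed for the gene.
Nqo1 (chr8:107403156-107403455, - strand): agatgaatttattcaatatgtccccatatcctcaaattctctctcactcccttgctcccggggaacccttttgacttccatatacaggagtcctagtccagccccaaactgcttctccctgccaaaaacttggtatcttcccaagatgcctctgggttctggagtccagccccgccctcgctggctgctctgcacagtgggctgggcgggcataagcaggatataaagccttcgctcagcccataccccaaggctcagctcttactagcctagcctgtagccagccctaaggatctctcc
Txnrd1 (chr10:82858956-82859255, + strand): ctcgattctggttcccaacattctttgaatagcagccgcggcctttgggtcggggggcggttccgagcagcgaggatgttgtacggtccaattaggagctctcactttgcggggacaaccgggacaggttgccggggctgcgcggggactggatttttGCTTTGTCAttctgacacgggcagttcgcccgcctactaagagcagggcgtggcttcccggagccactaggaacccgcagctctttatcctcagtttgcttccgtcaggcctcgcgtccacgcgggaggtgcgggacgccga
RefSeq windows were found for 34 of the 40 genes, and 11 of the 34 hold the core in at least 1 window: Gclm, Gsta3, Gstm5, Gstm7, Mgst1, Mt2, Nfe2l2, Prdx1, Sod1, Srxn1 and Txnrd1. Of all 32851 windows in the table, 12.4% hold it, against 11 of 45 windows of these genes. None of the 11 is among the 6 genes at least 1.1-fold apart between any of the media, and Gsta4 was not among the genes with a window. The share of all genes with the core that differ by this fold was not computed. With only 6 genes, and the core in 12.4% of all windows, this absence is not read as a result. The Nqo1 window holds 0 matches. Only the 250 bases before and 50 after a start site were searched, so a gene without a match can hold the element elsewhere. A match of letters is a description of the window and not a binding site.

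Genes of peroxide and superoxide removal differed in 1 case. Gpx1, a glutathione peroxidase, read 36882 units in SEMA3E with IgG and 42006 in SEMA3E, against 41802 in control. The IgG array stood below the other two, by log2 differences of −0.19 from SEMA3E and −0.18 from control. Gpx4, the peroxidase that protects membranes from lipid peroxides, read 479.9 units in SEMA3E with IgG, against 482.2 in both SEMA3E and control (log2 difference −0.01). Cat, which encodes catalase, and Sod1, the cytosolic superoxide dismutase, were identical at 15417 and 173177 units. A probe set shared by Prdx1 and the pseudogene Gm21399 read 894 units in both SEMA3E media, against 854 in control, a difference of 0.07.

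The metallothioneins, clustered on chromosome 8, were at or below control in both SEMA3E media. Mt3, the form best known from brain neurons and astrocytes, read 466.6 units in SEMA3E with IgG and 467.8 in SEMA3E, against 554.5 in control. Both SEMA3E arrays were below control, by log2 differences of −0.25 and −0.24. Only 166 and 144 of the 17653 genes were further below control in these comparisons. Of the 5 satellite glial markers, Fbln5, Atp1b2 and Kcnj10 were lower as well, with log2 differences from control of −0.30, −0.26 and −0.54 in SEMA3E with IgG and −0.28, −0.26 and −0.24 in SEMA3E. The other two were not lower: Apoe was identical in all 3 arrays, and Fabp7 was identical to control in SEMA3E with IgG and lay 0.13 above it in SEMA3E. The part of these cells in the value of Mt3 was not tested. Mt1 read 629.3 units in SEMA3E with IgG and 648.2 in both SEMA3E and control (log2 difference −0.04). Mt2 read 585.0 units in both SEMA3E media, against 597.5 in control (−0.03). Mt1 and Mt2, the broadly expressed forms that metals and glucocorticoids induce, thus differed by less than Mt3.

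The 3 promoter windows are printed because they set the metal-inducible forms beside Mt3, the gene of the family that differed. Capitals mark matches to the metal response element in its A form, TGCACNC, or G form, TGCGCNC, on either strand.
Mt1 (chr8:94178839-94179138, + strand): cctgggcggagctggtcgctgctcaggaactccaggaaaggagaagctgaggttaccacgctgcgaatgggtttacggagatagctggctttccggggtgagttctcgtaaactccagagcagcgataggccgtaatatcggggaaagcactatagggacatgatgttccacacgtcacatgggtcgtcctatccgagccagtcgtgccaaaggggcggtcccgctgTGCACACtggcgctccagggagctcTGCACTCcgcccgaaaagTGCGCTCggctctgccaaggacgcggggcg
Mt2 (chr8:94172368-94172667, + strand): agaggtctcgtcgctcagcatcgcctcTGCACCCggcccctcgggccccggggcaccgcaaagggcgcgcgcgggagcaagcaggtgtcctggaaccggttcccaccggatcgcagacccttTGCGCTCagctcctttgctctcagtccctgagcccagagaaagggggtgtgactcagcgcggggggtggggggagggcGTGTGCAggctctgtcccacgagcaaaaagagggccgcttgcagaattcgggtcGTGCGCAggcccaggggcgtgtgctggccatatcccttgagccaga
Mt3 (chr8:94152357-94152656, + strand): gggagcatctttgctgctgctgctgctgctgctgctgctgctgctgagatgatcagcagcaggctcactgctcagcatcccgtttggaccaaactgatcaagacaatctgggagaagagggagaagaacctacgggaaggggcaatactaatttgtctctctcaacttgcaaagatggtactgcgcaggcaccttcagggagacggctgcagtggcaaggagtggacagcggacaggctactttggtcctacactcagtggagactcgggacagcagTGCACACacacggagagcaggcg
Mt1 holds 3 matches, Mt2 holds 4 and Mt3 holds 1. The Mt3 match lies after the RefSeq start site of its window, at position 28, as do those of Mt1 at positions 3 and 21 and that of Mt2 at position 5. Which start sites these cells use was not tested. Windows with at least 1 match of either form make up 25.7% of all 32851, those with at least 3 make up 1.97%, and those with at least 4 make up 0.517%. Mt2 also holds the antioxidant response element core, TGACNNNGC, which overlaps no metal match there. In the windows of the listed genes an overlap of these motifs occurs in Gclm alone.

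**Figure D3:**
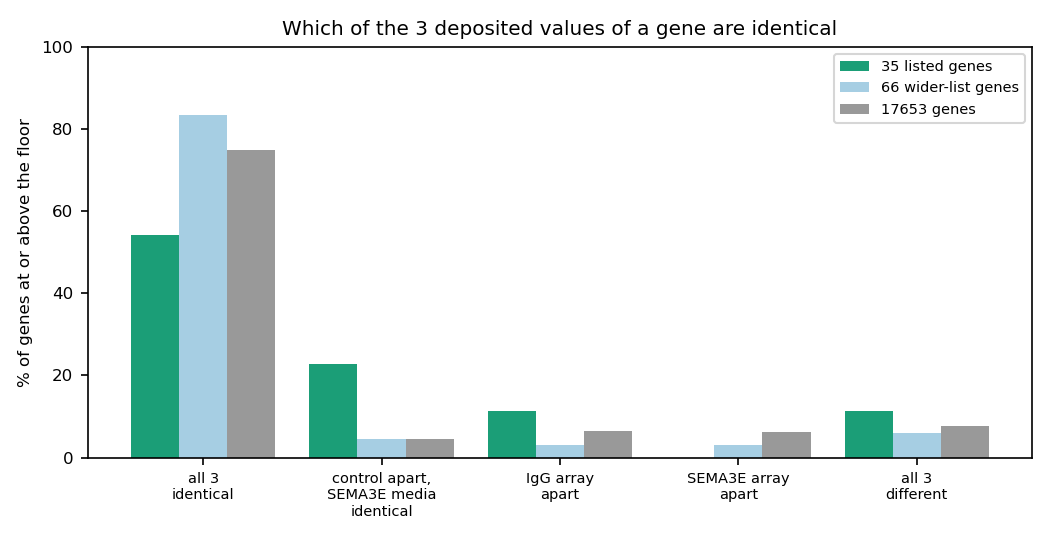
Share of genes, in percent, by which of the 3 deposited values are identical, for 35 listed genes, 66 genes of the wider list and all 17653 genes at or above the floor. Control stands apart from 2 identical SEMA3E values in 22.9% of the listed genes, 4.55% of the wider list and 4.63% of all genes.

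A feature of the deposited values is that a gene's value is often the same to the last digit in several arrays, and this allows a count of which array stood apart. In 19 of 35 genes (54.3%) all 3 values were identical, against 74.9% of all 17653 genes. In 8 of 35 (22.9%) the 2 SEMA3E media shared a value and control differed, namely Gsta2, Gstm4, Gstm5, Gstp1, Gstt2, Mgst3, Nqo1 and Mt2, against 4.63% of all genes. Control was the lower in Gsta2, Gstp1 and Nqo1 and the higher in the remaining 5, and in Gstp1 and Mgst3 the difference was 0.01 or less. The IgG array alone stood apart in 4 genes (Txnrd1, Sqstm1, Gpx4 and Mt1; background 6.56%), the SEMA3E array alone in 0 (background 6.14%), and all 3 arrays differed in 4 (Gsta4, Gstt1, Gpx1 and Mt3; background 7.79%). This count was made after the values were seen, has no replicate behind it, and joins genes of shared families and neighbouring genes.

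**Figure D4:**
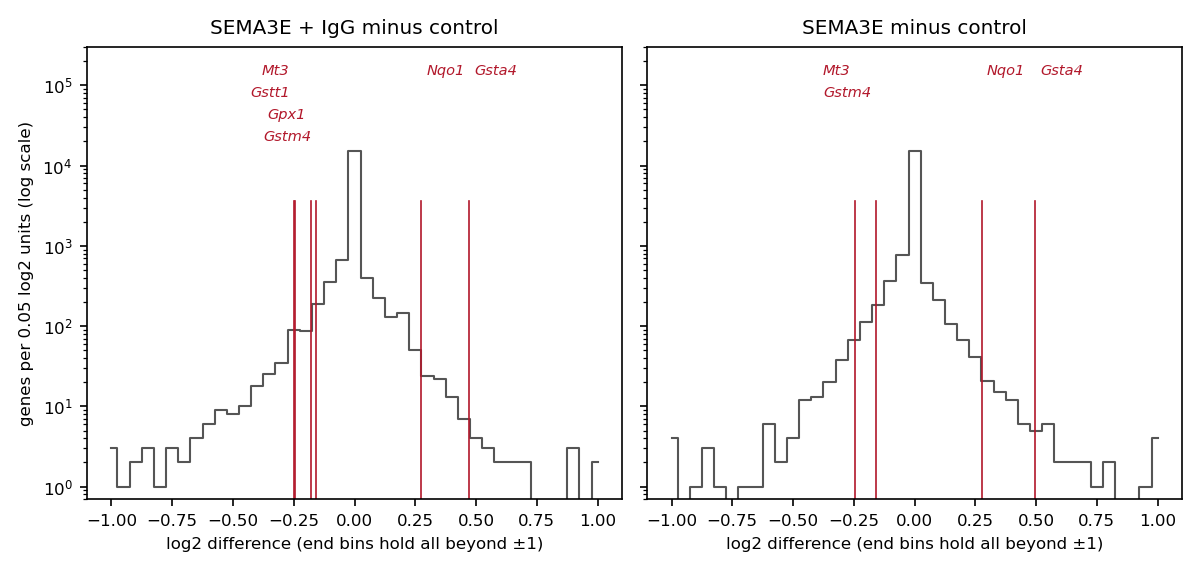
Number of genes per 0.05 log2 units of difference from control, on a log axis, over 17653 genes for SEMA3E with IgG and for SEMA3E, with lines at the listed genes at least 1.1-fold from control. Nqo1 and Gsta4 lie in the upper tail of both panels, Mt3 and Gstm4 lie on the lower side of both, and Gstt1 and Gpx1 are marked on the lower side for SEMA3E with IgG alone.

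A wider list of 96 genes of the same pathways, none of them among the 40, was read in the same way. Of these 85 were measured and 66 lay above the floor. Against control, 0 of 66 were at least 1.1-fold higher in either SEMA3E medium and 1 was lower in both, Glrx5, a mitochondrial glutaredoxin needed for iron-sulfur clusters. Over all 17653 genes, 2.11% were higher and 2.45% lower with SEMA3E and IgG, and 1.38% higher and 2.36% lower with SEMA3E, so counts of 0 and 1 in 66 are near the background. Glrx5 read 9787 units in SEMA3E with IgG and 10814 in SEMA3E, against 12321 in control, with log2 differences from control of −0.33 and −0.19. All 5 measured genes of NADPH supply were, like most genes of the file, identical in the 3 arrays, as were the 10 partners and regulators of NRF2 above the floor, among them Bach1, which competes with NRF2 for its elements, and Mafg and Mafk, its small MAF partners. Slc3a2, the heavy chain of the cystine importer, was lower than control by less than 1.1-fold (log2 differences −0.09 in SEMA3E with IgG and −0.12 in SEMA3E). Fth1, the ferritin heavy chain, was higher by 0.08 in both, and Akr1b8 was lower (−0.11 in SEMA3E with IgG and −0.10 in SEMA3E). Counting any difference over 0.01, 2 of 66 genes were higher than control and 6 lower with SEMA3E and IgG (backgrounds 6.8% and 10.3%). With SEMA3E, 4 were higher and 5 lower (backgrounds 5.59% and 11.0%). In this list 55 of 66 genes (83.3%) held identical values in all arrays, against 74.9% of all 17653 genes, so an identical value is the usual state and not a trait of these genes.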

How the data were processed

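Each medium was measured on 1 array. Biotin-labelled RNA was made with the GeneChip WT Pico kit, per the labels' protocols. The values are the probe set intensities the authors deposited, and the submitters' processing notes name Affymetrix Expression Console as the tool. Its version, the normalization, the probe summary and the build were not given in the sources used here. Values run from 6.12 to 496402 units, so log2(intensity + 1) was taken and differences between arrays computed. The platform annotation names 30604 of 65956 probe sets by a single symbol, 2146 by several and 33206 by none; 827 symbols were updated through RefSeq, and the brightest probe set of a gene was kept. Promoter windows are RefSeq's (GRCm38.p6). A gene counts as higher or lower from 1.1-fold (0.14 on the log2 scale). Named were all listed genes past that fold, the regulators and the metallothioneins, with the rest in groups, and from the wider list those past that fold. Slc3a2, Fth1, Akr1b8 and the genes of identical value named beside Glrx5 were chosen after their values were seen. Protein sequences were not used, so paralogues were compared by promoter windows, which do not show how alike their transcripts are. The genes and lists were chosen with earlier results of these data known. The counting was tested on simulated data without noise, which checks its arithmetic and not the error of a single array. Alternatives were an offset of 16, centring, quantile normalization, loess, other floors, the mean over probe sets and other thresholds. Python 3.11.15, numpy 2.4.6, pandas 2.3.3, statsmodels 0.14.6, Biopython 1.88 and matplotlib 3.10.9 were used.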

Additional observations from a re-analysis of the deposited data

Results flagged for a closer look

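The probe set annotated to Gsta1 and Gm3776 entered no comparison, because it names more than 1 gene, and it was higher than control in both SEMA3E media by a log2 difference of 0.52. The probe sets of Gsta4 and Gsta2, from the same cluster on chromosome 9, differed from control in the same direction. Outliers among replicates could not be sought, since each medium has 1 array.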

How the results depend on the processing

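The counts of genes at least 1.1-fold apart held the same genes with an offset of 16, centring, quantile normalization, loess, no floor, a floor 1 log2 unit higher and the mean over probe sets. Centring, no floor and the mean over probe sets could not have changed them. The median difference of all genes was 0 in each comparison, and without a floor only Gsta3, identical in all arrays, was added. Each measured gene of the list has 1 probe set, so its mean is the same value. The furthest any scaling moved the median of all genes was −0.00376, by quantile normalization. Other thresholds moved 10 counts by over 1.5 times. At a ratio of 5 to 4, 1 gene (Gsta4) was higher than control with SEMA3E and 1 (Gsta4) with SEMA3E and IgG, and 0 were lower in any of the 3 comparisons. Counting any difference over 0.01 log2 units, 6 genes were lower with SEMA3E than control. With SEMA3E and IgG against SEMA3E alone, 2 were higher and 4 lower, and against control 5 were higher and 8 lower. Over the alternatives Gsta4 lay 0.49 to 0.51 above control with SEMA3E, Nqo1 0.24 to 0.28 above it, and Mt3 between −0.25 and −0.24. With 1 array per medium, no result has a replicate error, and a chance deviation of the control array would move both comparisons with it. No paired analysis was possible because each medium has 1 array.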
